A study of Mus musculus with 135 samples.

Results

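Transcript levels of ovulated mouse oocytes were set against those of germ cells of the embryonic gonad. The oocytes were 24 single metaphase II oocytes of wild-type mice aged 2 to 4 months, and the germ cells were 1 wild-type library of cells purified from embryos at E13.5 (days of embryonic development). Together they make up 25 of the 135 samples of a study of mice lacking the DNA demethylases Tet1 or Tet2. The oocytes were those whose titles begin with T, which fall by title into 3 sets of 8 (T148, T211 and T231), and the labels do not say whether a set is 1 female. The germ cell library was pooled from 4 to 6 embryos whose sex the labels do not give. Both groups had the C57BL6/129 background and carried no knockout. A further 14 young wild-type oocytes from another sequencing table, 12 wild-type oocytes aged 10 to 12 months, and 1 E13.5 library labelled Tet2KO were used as a second look at the same genes.

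At E13.5 germ cells have reached the gonad, have lost most of their DNA methylation and parental imprints, and still express pluripotency genes. In a fetal ovary they then enter meiosis under the transcription factor STRA8, while in a fetal testis they halt in the cell cycle. A female germ cell halts in meiotic prophase and grows for weeks inside a follicle. There it builds a zona pellucida and stores messenger RNA for the embryo, and it is ovulated at metaphase of the second meiotic division. By that stage transcription has stopped, and the stored messages are translated or degraded in turn.

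The 2 groups were not measured alike. Oocyte libraries followed standard Illumina protocols and were deposited as counts, while the germ cell library followed what the labels call micro RNA construction and was deposited as FPKM, a unit scaled to gene length and library size, with a depth unknown here. Both were therefore brought to TPM, an abundance scaled to gene length and to the same total in every library, over the 18743 genes found in both tables, and each gene was given a percentile rank from 0 to 100 in every oocyte and in the germ cells. A gene was called higher or lower in oocytes when its median rank lay at least 25 points from the germ cell rank in the same direction in each of the 3 sets. With 1 germ cell library there is no test of this difference, no p-value is given, and the SD over the 3 set values (n = 3) covers oocytes alone. The 14 other young oocytes share 1 title identifier and form 1 set, so a call with them needed only 1 set median to pass. The older oocytes also formed fewer than 3 sets. Library preparation, quantification and stage differ together between the groups and cannot be told apart.

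Oocyte libraries held 2354503 to 5044746 counts and detected 15580 to 18228 genes. Any 2 oocytes of the same set had a Spearman rank correlation across the shared genes of 0.932 to 0.945, and any 2 of different sets one of 0.920 to 0.944. The rank correlation of an oocyte with the germ cells lay between 0.529 and 0.560 over the same 18743 genes, which are not independent, whereas the wild-type and Tet2KO germ cell libraries correlated at 0.977. Over the 14861 genes that reached 1 TPM in an oocyte set or in the germ cells, the correlation of the averaged oocytes with the germ cells was 0.365, against 0.565 over all shared genes. A share of 36.1% to 40.7% of an oocyte's TPM over all genes lay in genes that have no row in the germ cell table, and these were not compared.

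Of the 18743 genes, 2393 were called higher in oocytes (12.8%) and 2650 were called lower (14.1%). The median rank difference was close to 0, and the ends of both rankings carry limits. The 4684 genes ranked above 75 in germ cells could not be called higher, and the 8064 genes ranked under 43.02 in germ cells could not be called lower even with no count in any oocyte. A count of none called lower therefore says little for a list whose members lie near the germ cell floor, as many zona, growth factor and maternal effect genes do. In the same way, a count of none called higher says little for members ranked above 75 in germ cells, as most ribosomal protein genes were. Many respiratory chain, glycolytic and replication genes ranked there too. Genes with no count in any oocyte (2813) share a rank of 18.0 there, while the 821 genes at the germ cell table's floor of 0.01 FPKM share a rank of 2.19, so a gene undetected in both shows a difference of 15.8 points. With a 4-fold TPM ratio at a pseudocount of 1 in place of ranks, the number of genes called higher in oocytes was 1758 and the number of genes called lower in oocytes was 5274, so the balance of the 2 directions depends on the measure.

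**Figure D1:**
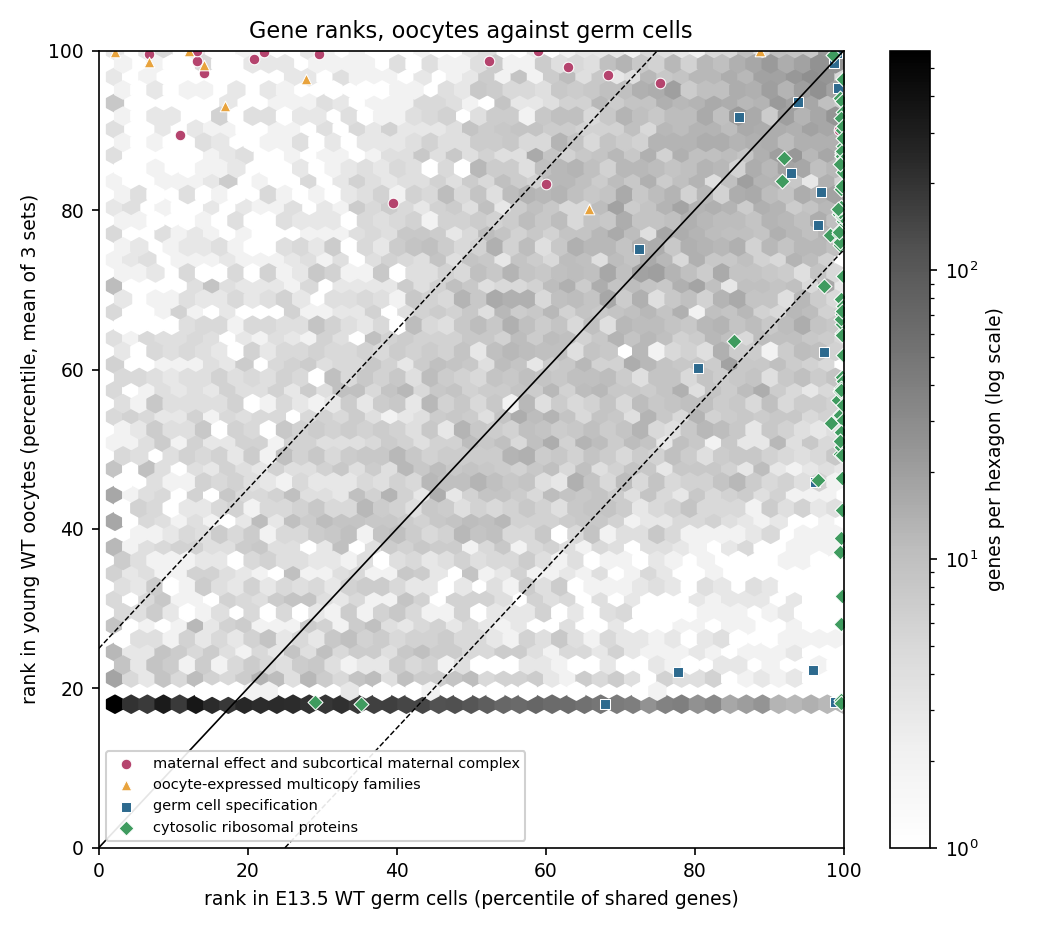
Percentile rank of each of 18743 genes in young WT oocytes (vertical axis, mean of 3 set medians) and in E13.5 WT germ cells (horizontal axis), with 4 gene lists drawn as symbols, the solid line at equal rank and the dashed lines 25 points from it. Maternal effect genes and multicopy families lie toward the top left, ribosomal protein genes run down the right edge, and the band near a rank of 18 holds genes with no oocyte counts.

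Promoter sequence is shown for a pair of genes that stand for the oocyte side of the comparison, Zp3 and Bmp15, both abundant in every oocyte and below 1 TPM in the germ cells. In mice the factor FIGLA, with its E12 partner, acts on zona pellucida genes through an E-box, whose general form is CANNTG, which reads the same on both strands. The Zp3 window covers 244 bases on the plus strand at chr5:135979855-135980098, and the Bmp15 window covers 250 bases on the minus strand at chrX:6320725-6320974 (RefSeq sequence, build GRCm38.p6). Both lie upstream of the annotated start and outside annotated exons, and are written 5′ to 3′ with each CANNTG in capitals.
Zp3: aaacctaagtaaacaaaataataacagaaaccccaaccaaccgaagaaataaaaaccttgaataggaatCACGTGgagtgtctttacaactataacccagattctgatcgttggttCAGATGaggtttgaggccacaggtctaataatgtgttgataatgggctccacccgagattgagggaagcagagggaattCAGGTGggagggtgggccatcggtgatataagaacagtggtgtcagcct
Bmp15: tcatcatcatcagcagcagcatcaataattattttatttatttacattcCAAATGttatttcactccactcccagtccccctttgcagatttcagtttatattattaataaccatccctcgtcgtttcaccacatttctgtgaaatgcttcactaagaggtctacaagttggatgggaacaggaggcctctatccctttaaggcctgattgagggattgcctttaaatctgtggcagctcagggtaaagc
The Zp3 window holds 3 matches and the Bmp15 window 1. Among 32851 promoter windows of 250 bases upstream, 66.2% held at least 1 match and 12.2% held 3 or more, so a match alone is common. The Zp3 window holds 5 CpG dinucleotides and the Bmp15 window 2, against a median of 6 over all windows.

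Genes of the egg coat and egg surface were among the strongest gains. Of 6 compared, 4 were called higher in oocytes and none was called lower, with a median rank difference of 61.2 points. Astl, the protease ovastacin that hardens the zona after fertilisation, had 593, 1071 and 2574 TPM as the lowest, median and highest of 24 oocytes, against 0.102 TPM in the germ cells. Zp1, a zona pellucida glycoprotein, had 331, 393 and 762 TPM in the same order, against 0.224 TPM in the germ cells. Zp3, the zona glycoprotein shown above, had 196, 558 and 908 TPM, against 0.571 TPM in the germ cells. Every oocyte was above the germ cell level of these 3 genes. Izumo1r, the egg receptor for the sperm protein IZUMO1, averaged 82.1 ± 7.0 TPM in oocytes, against 4.37 TPM in the germ cells. Cd9, a tetraspanin needed for sperm fusion in mice, was the exception, with 17.5 ± 4.5 TPM in oocytes, against 108 TPM in the germ cells and a rank difference of -16.8. Zp2 has no row in the germ cell table and had 213 to 523 TPM in oocytes.

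Growth factors that the oocyte sends to its granulosa cells were called higher in 4 of 4 cases, with a median difference of 67.5 points. Gdf9 ranged from 11852 to 26529 TPM with a median of 17418 in oocytes, against 0.347 TPM in the germ cells. Bmp15 ranged from 3534 to 6692 TPM with a median of 5119, against 0.0612 TPM in the germ cells. Both were in the top percent of oocyte transcripts in every set. The other 2, Bmp6 and Fgf8, were far less abundant, at 28.6 ± 1.7 and 21.8 ± 2.9 TPM in oocytes, against 0.816 and 1.65 TPM in the germ cells.

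Transcription factors of the growing oocyte were split. Nobox, a homeobox factor, had 196 ± 37 TPM in oocytes, against 0.673 TPM in the germ cells, and Lhx8, a LIM homeobox factor, had 90.8 ± 7.35 TPM in oocytes, against 1.22 TPM in the germ cells. Together with Obox3 these were the 3 of 8 called higher, and none was called lower. Figla itself had 5.88 ± 2.80 TPM in oocytes, with counts in 21 of 24, against 6.37 TPM in the germ cells. Sohlh1, which acts early in mouse follicle formation, had 2 counts in 24 oocytes, against 1.22 TPM in the germ cells, and its partner Sohlh2 had 50.3 ± 10.9 TPM in oocytes, against 178 TPM in the germ cells. The median difference of the 8 factors was 12.6 points.

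Maternal effect genes, whose product in the egg the embryo needs, were called higher in 13 of 17 cases with a median difference of 46.3 points, and none was called lower. Zbed3, a member of the subcortical maternal complex in mice, was the most abundant shared gene of the oocytes, at 27165, 35655 and 40889 TPM as the lowest, median and highest, against 14.5 TPM in the germ cells. Its complex partners Nlrp5, Ooep, Khdc3 and Tle6 were called higher too, at 369 ± 174, 543 ± 296, 35.02 ± 21.4 and 329 ± 127 TPM in oocytes, against 0.184, 18.6, 3.22 and 25.1 TPM in the germ cells. Exons of a gene model, Gm20509, cover 38.5% of the exon bases of Khdc3. Padi6, needed for the egg's cytoplasmic lattices, averaged 3356 ± 879 TPM in oocytes, against 0.510 TPM in the germ cells. Among genes of 10 TPM or more without Gm or Rik symbols, Nlrp4f was 1 of the 10 largest gains. It had 1580 ± 259 TPM in oocytes, against 0.0612 TPM in the germ cells. Dppa3 (Stella), which shields the maternal genome from demethylation in the zygote, was already at rank 98.9 in the germ cells, with 5958 ± 628 TPM in oocytes against 585 TPM there, and so could not be called. Trim28, a corepressor that maintains imprints, was not called, at 81.4 ± 14.03 TPM in oocytes, against 1025 TPM in the germ cells. The linker histone H1foo, at 26187 TPM or more in every oocyte, has no row in the germ cell table.

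Families present in many genomic copies and expressed in oocytes gave the largest median, 80.1 points, with 6 of 8 called higher. Tcl1b2, a TCL1 family member, had 4439 to 12007 TPM in oocytes and was at the floor of the germ cell table. Rfpl4, a RING-finger protein that binds the cell cycle machinery in mouse oocytes, had 9368 to 16036 TPM in oocytes, against 0.143 TPM in the germ cells. Oog4 averaged 627 ± 197 TPM in oocytes, against 0.0612 TPM in the germ cells, and Oas1c averaged 508 ± 78 TPM, against 0.184 TPM in the germ cells. Tcl1, a coactivator of AKT, was at 18062 ± 1216 TPM in oocytes, against 87.0 TPM in the germ cells. Of the 25 genes in the list, 17 have no row in the germ cell table, among them Oas1d, Tcl1b1 and Oog3, each above 5889 TPM in every oocyte. Members of such families share sequence, for instance 38.7% of the tested windows in Tcl1b2 and 53.3% in Nlrp4e, and their counts are less certain for that reason.

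Regulators of meiotic maturation were called higher in 7 of 20 cases and lower in 1. Mos, the kinase that starts the cytostatic arrest at metaphase II, had 2511 to 4100 TPM with a median of 3192 in oocytes, against 0.0816 TPM in the germ cells. Wee2, the oocyte kinase that inhibits CDK1, averaged 1421 ± 98 TPM in oocytes, against 0.102 TPM in the germ cells, and Fbxo43 (EMI2), which inhibits the anaphase-promoting complex, averaged 317 ± 18 TPM, against 1.31 TPM in the germ cells. Gpr3 and Pde3a, the receptor and the phosphodiesterase that set cyclic AMP in the prophase-arrested oocyte, were called higher at 141 ± 12 and 48.2 ± 3.8 TPM in oocytes, against 1.53 and 0.9999 TPM in the germ cells. Ccnb1, cyclin B1, had 5310 ± 368 TPM in oocytes, against 312 TPM in the germ cells, a difference of 2.3 points from an already high rank. Cdk1 was the 1 member called lower, at 2.01 ± 0.93 TPM in oocytes, against 64.4 TPM in the germ cells.

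Aurkc, the meiotic Aurora kinase, differed between the sets more than most. Its set medians were 401, 2404 and 2293 TPM in T148, T211 and T231, against 21.96 TPM in the germ cells, and it was called higher in oocytes at a mean difference of 33.1 points. Of its tested 31-base windows 75.4% occur in another gene. Among 5863 genes at 10 TPM or more in oocytes, the median ratio of the highest to the lowest set was 1.33, and 100 genes (1.71%) reached a ratio of 5 or more. Ybx1, a messenger RNA packaging protein, was one of these, with 722, 63.2 and 591 TPM in the 3 sets, against 548 TPM in the germ cells. Suv39h2 and Tdrd5 had large spreads as well, at 90.0 ± 69.5 and 31.1 ± 29.1 TPM in oocytes, against 32.1 and 45.1 TPM in the germ cells, and neither was called.

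Genes that store, silence or remove maternal messages were called higher in 7 of 23 cases and lower in 3. Btg4, the adaptor that brings the deadenylase to maternal messages, had 6172 to 11476 TPM in oocytes, against 0.163 TPM in the germ cells. Pabpc1l and Eif4e1b, germ cell relatives of the poly(A)-binding and cap-binding proteins, had 52.1 ± 22.2 and 129 ± 8 TPM in oocytes, against 0.367 and 0.306 TPM in the germ cells. Cnot6l, a deadenylase subunit, was called higher at 76.3 ± 3.8 TPM in oocytes, against 12.3 TPM in the germ cells. Dazl, a translational activator of both stages, had 2176 ± 184 TPM in oocytes, against 733 TPM in the germ cells, at almost the same rank. The 3 called lower were Zfp36l2, an ARE-binding decay factor, with 0.627 ± 0.454 TPM in oocytes against 105 TPM in the germ cells, together with the uridylyltransferase Tut4 and the helicase Ddx6. Ybx2 (MSY2), the main packaging protein of stored messages in mouse oocytes, had 9.54 ± 1.65 TPM, against 188 TPM in the germ cells, and its rank difference of -27.0 did not hold in every set.

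**Figure D2:**
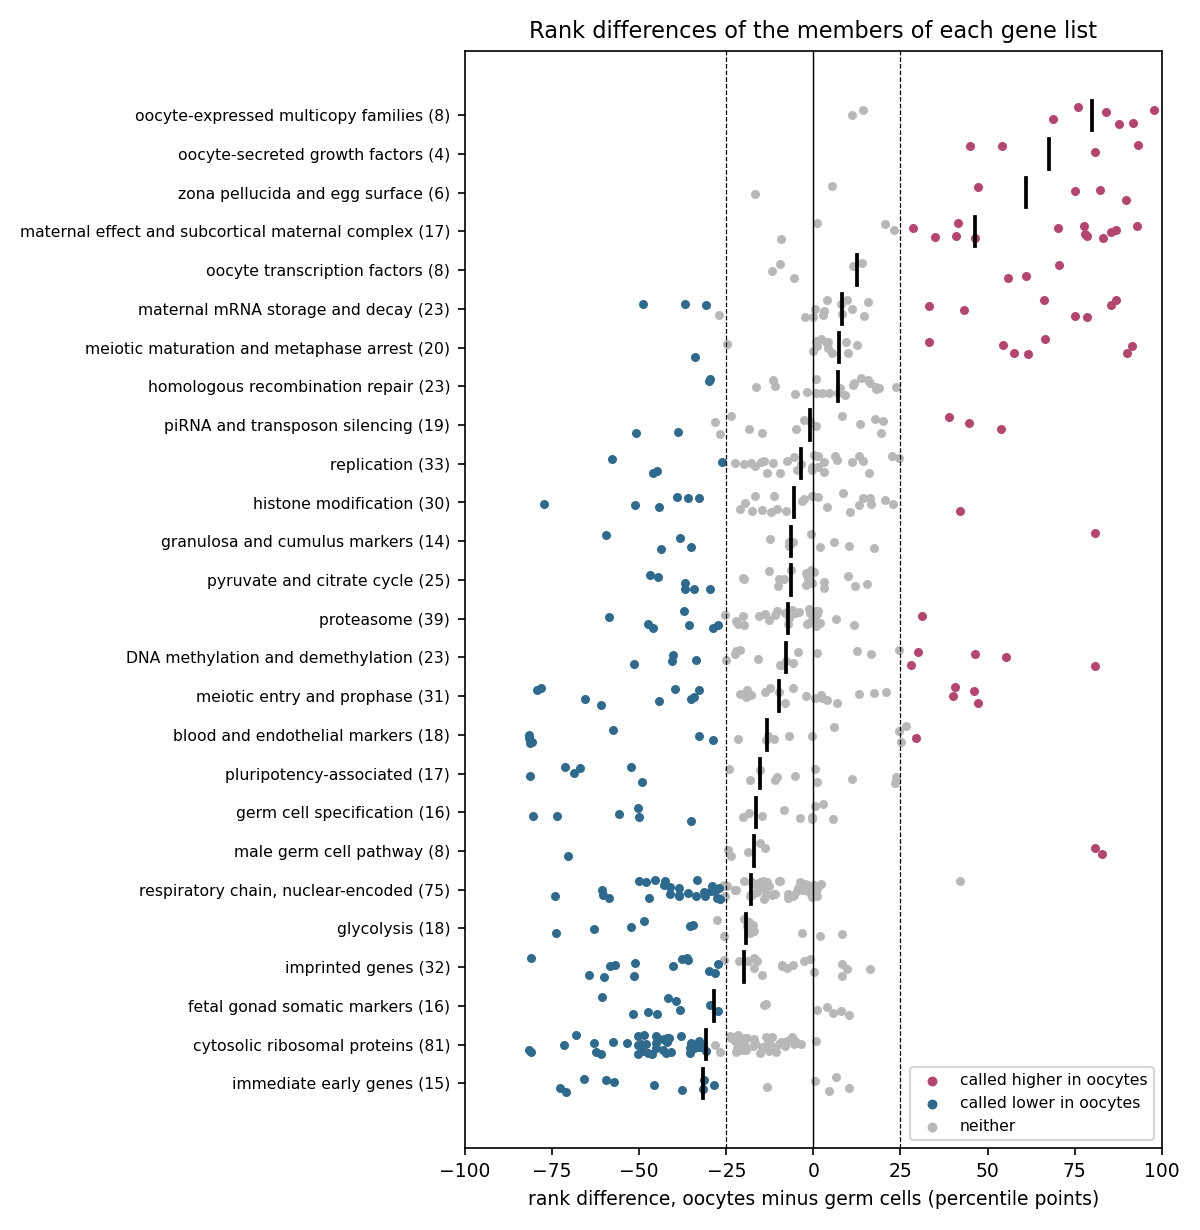
Rank difference, young WT oocytes minus E13.5 WT germ cells in percentile points, of each member of the gene lists (dots, with the number compared in brackets) and the median of each list (black bars). Dots are coloured by call, and a grey dot beyond a dashed line at 25 points did not pass in every set. The egg coat, growth factor, maternal effect and multicopy lists have medians from 46.3 to 80.1 points, and immediate early and ribosomal protein genes have medians of -31.6 and -30.8 points.

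Genes of germ cell specification were called lower in oocytes in 6 of 16 cases and higher in none, with a median of -16.6 points. Prdm14, a founder transcription factor of the germline, had counts in 8 of 24 oocytes and reached 1.64 TPM at most, against 42.1 TPM in the germ cells. Nanos3, an RNA-binding survival factor of migrating germ cells, had no count in any oocyte, which with 3 counts over the group allows up to 0.170 TPM, against 24.6 TPM in the germ cells. Dnd1, its partner, averaged 1.14 ± 0.39 TPM in oocytes, against 212 TPM in the germ cells, and Dppa4 averaged 0.132 ± 0.228 TPM, against 202 TPM in the germ cells. Ifitm1 was absent from 19 of 24 oocytes and was at 553 TPM in the germ cells, whereas its neighbour Ifitm3 was at 536 ± 70 TPM in oocytes, against 512 TPM in the germ cells. Kit, the stem cell factor receptor, was level at 141 ± 30 TPM in oocytes, against 145 TPM in the germ cells. Ddx4, the vasa helicase, had 36.6 ± 14.9 TPM in oocytes, against 262 TPM in the germ cells, and its difference of -14.7 points was not called. The labelled cell type of the E13.5 library was checked against Dazl, Ddx4, Dnd1 and Nanos3, and all 4 were detected there. Their detection shows that germ cells were present but not how pure the library was. It also held blood and endothelial markers at a summed 6160 TPM and fetal gonad somatic markers at 218 TPM. Of 9 sex-linked markers only Xist and Ddx3y were compared, at a summed 5.26 TPM in the WT and 3.59 TPM in the Tet2KO germ cells. The Y-linked Ddx3y ranked at 2.88 in the Tet2KO germ cells. The sex of the embryos was not tested.

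Pluripotency-associated genes were called lower in 6 of 17 cases and higher in none. Utf1, a chromatin factor of pluripotent cells, had no count in 24 oocytes and 940 TPM in the germ cells. Sox2 and Nanog had counts in 8 and 9 of 24 oocytes and reached 2.42 and 3.70 TPM at most, against 239 and 91.5 TPM in the germ cells. L1td1, Klf2 and Zfp42 made up the rest. Pou5f1 (OCT4) was kept at a lower level, with 36.7, 63.1 and 148.2 TPM as the lowest, median and highest of the oocytes, against 964 TPM in the germ cells, and its difference of -11.0 points was not called. Sall4 stood at 289 ± 70 TPM in oocytes, against 207 TPM in the germ cells.

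Of 31 meiotic genes 9 were called lower and 4 higher, and the 12.9% called higher is that of all genes. Stra8, the switch into meiosis, had no count in any of 24 oocytes, which allows up to 0.0873 TPM, against 282 TPM in the germ cells. Rec8 and Stag3, subunits of meiotic cohesin, had 1 and 39 counts over all oocytes, against 218.9 and 231.3 TPM in the germ cells. Syce1, Syce3 and Hormad1 of the chromosome axis and synaptonemal complex, Spo11 of break formation and Meioc were among the others called lower. The 4 called higher were Sycp2, an axis protein, at 54.0 ± 9.7 TPM in oocytes against 6.14 TPM in the germ cells, Msh4 of crossover formation at 112 ± 4 TPM against 5.86 TPM, Mei4 at 79.1 ± 35.6 TPM against 7.10 TPM and Terb1 of telomere attachment at 74.2 ± 7.9 TPM against 4.12 TPM, in each case with the oocytes named first. Syce2 was near level at 387 ± 18 TPM in oocytes, against 279 TPM in the germ cells. Sycp3 had 207 ± 70 TPM in oocytes, against 84.5 TPM in the germ cells, but 52.2% of its exon bases lie in exons of Chpt1, and reads in such an overlap were counted for both genes.

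**Figure D3:**
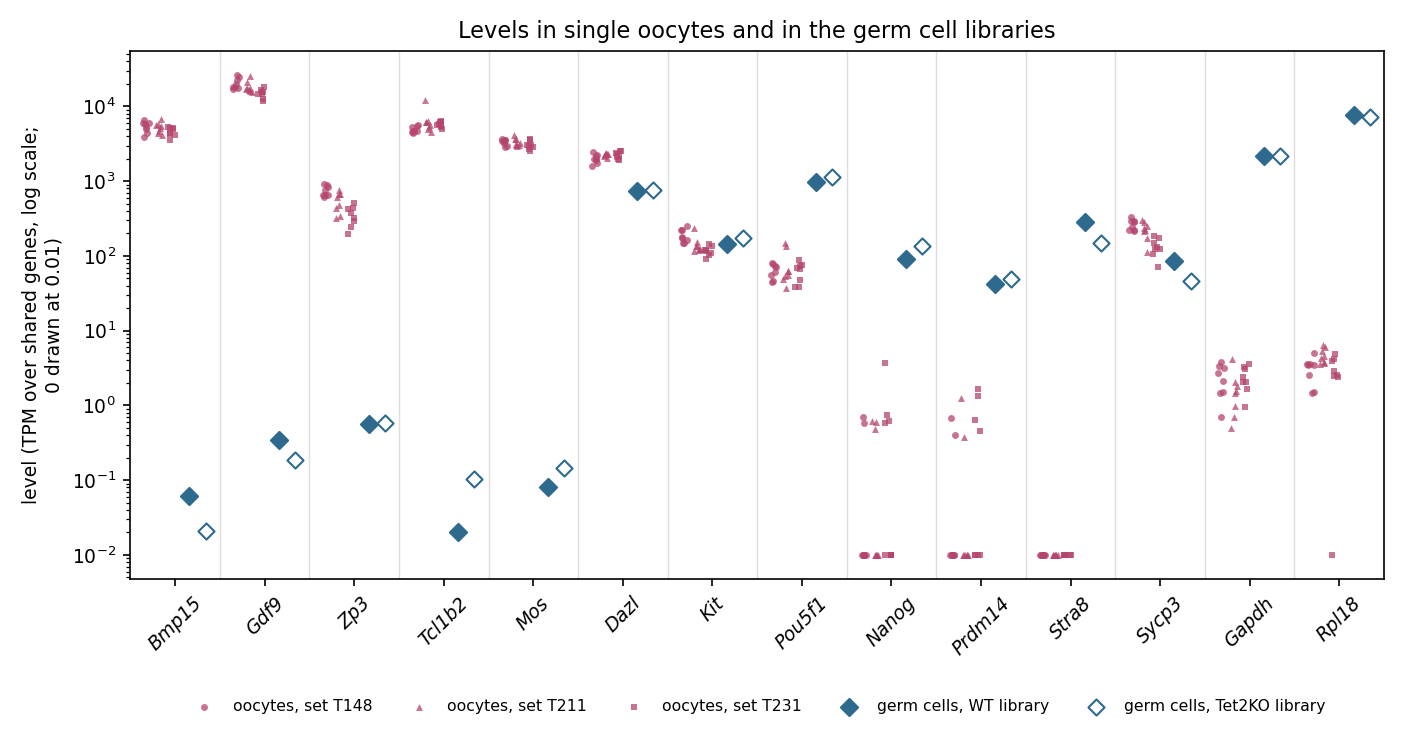
Levels of 14 genes in each of 24 young WT oocytes (3 symbols for the 3 sets), in the E13.5 WT germ cell library (filled diamond) and in the E13.5 Tet2KO library (open diamond), on a log axis of TPM over shared genes with 0 drawn at 0.01. Oocytes lie above both germ cell libraries for Bmp15, Gdf9, Zp3, Tcl1b2, Mos and Dazl, and below both for Pou5f1, Nanog, Prdm14, Stra8, Gapdh and Rpl18.

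A small list of genes tied to the male germ cell pathway had 2 of 8 called higher in oocytes and 1 lower, while 3 were called lower with the Tet2KO germ cells or with summed counts and 4 in the second pair. Nanos2, which in mice imposes the male fate on fetal germ cells, had 106, 202 and 358 TPM as the lowest, median and highest of the oocytes, against 0.143 TPM in the germ cells. An exon of an unnamed gene model covers 49.0% of its exon bases. Dnmt3l, the cofactor of de novo methylation that both prospermatogonia and growing oocytes use in mice, had 54.9, 90.8 and 193 TPM, against 0.102 TPM in the germ cells. Every oocyte was above the germ cell value for both genes. Tex101 was called lower, with no count in 24 oocytes and 83.4 TPM in the germ cells.

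Piwi-interacting RNA genes, which silence transposons, were called higher in 3 of 19 cases (15.8%) and lower in 2 (10.5%), near the shares of all genes. The lower calls numbered 4 without set T148, where fewer sets had to pass. They numbered 7 in the second pair of groups, the 14 other young oocytes with the Tet2KO germ cells, where only 1 set had to pass. Piwil1 averaged 33.7 ± 4.35 TPM in oocytes, against 1.04 TPM in the germ cells, and Piwil2 averaged 0.335 ± 0.102 TPM, against 89.5 TPM in the germ cells, so the 2 Piwi genes stood in opposite order. Gtsf1 and Henmt1, a cofactor and a methyltransferase of the pathway, were called higher at 172 ± 13 and 18.2 ± 3.4 TPM in oocytes, against 11.7 and 1.31 TPM in the germ cells. Tdrd7 was called lower.

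Genes of DNA methylation and demethylation, enzymes and their partners, were called higher in 5 of 23 cases and lower in 4. These are 21.7% and 17.4%, against 12.8% and 14.1% of all genes. Tet3, the dioxygenase that oxidises the paternal genome in the zygote, had 119, 153 and 255.6 TPM as the lowest, median and highest of the oocytes, against 3.06 TPM in the germ cells, and was called higher. Tet1 and Tet2, the genes knocked out elsewhere in the study, were low in these wild-type oocytes at 0.766 ± 0.443 and 0.535 ± 0.165 TPM. The germ cells had 21.04 and 6.51 TPM, and neither difference (-22.5 and -5.9 points) was called. In the second pair of groups Tet1 was called lower at -31.5 points, and Tet2 at -9.97 points was not called. Dnmt3b was called higher at 23.5 ± 2.7 TPM in oocytes, against 7.14 TPM in the germ cells, while Dnmt1, the maintenance enzyme, had 127 ± 18 TPM in oocytes, against 288 TPM in the germ cells. Zfp57, which protects imprints, was called higher at 606 ± 40 TPM in oocytes, against 9.43 TPM in the germ cells. On the other side Tdg, the glycosylase that removes oxidised cytosine, had no count in 24 oocytes and 26.5 TPM in the germ cells, with 66.7% of its windows found in another gene. Mbd3, Uhrf2 and Parp1 were called lower.

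Histone-modifying enzymes were called lower in 6 of 30 cases, and higher in 1. Ehmt2 (G9a), an H3K9 methyltransferase, had 13 counts over 24 oocytes and 207 TPM in the germ cells, while its partner Ehmt1 had 27.5 ± 5.4 TPM in oocytes, against 49.7 TPM in the germ cells. Kdm6b, an H3K27 demethylase, was the member called higher, at 245 ± 21 TPM in oocytes, against 10.7 TPM in the germ cells.

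Imprinted genes were called lower in 14 of 32 cases and higher in none, with a median of -20.0 points. H19, Dlk1, Peg12, Mkrn3, Mirg, Magel2 and Rtl1 had no count in any oocyte, and of these H19 was at 676 TPM and Rtl1 at 0.0816 TPM in the germ cells. Igf2, the growth factor of the same domain, had 0.462 ± 0.252 TPM in oocytes, against 293 TPM in the germ cells, with 64.5% of its exon bases shared with neighbouring transcripts. Peg3 had 2.83 ± 0.79 TPM in oocytes, against 105 TPM in the germ cells, and the growth inhibitor Cdkn1c had 3.90 ± 2.998 TPM, against 233 TPM in the germ cells. Mest was not called, at 548 ± 40.5 TPM in oocytes, against 97.8 TPM in the germ cells, with a difference of 8.3 points. In the pooled germ cell sample, fewer cells of a type and less RNA per cell cannot be told apart. Markers of gonadal somatic cells were present in that library, and many were lower in oocytes. Of 16 fetal gonad markers 9 were called lower, and Wt1, Col3a1, Wnt4 and Tcf21 had no oocyte count. Their summed level was 13.9 to 50.6 TPM in oocytes, against 218 TPM in the WT and 114.5 TPM in the Tet2KO germ cells. With the Tet2KO germ cells 6 were called lower. In the second pair 7 were called lower and 2, Gata4 and Hsd3b1, higher. The part of gonadal somatic cells in the level of H19, Igf2, Dlk1 and Cdkn1c was not tested.

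Blood markers stood out among the losses. Of 18 blood and endothelial markers 7 were called lower and 1, the macrophage receptor Csf1r, higher, with a summed level of 17.5 to 68.9 TPM in oocytes, against 6160 TPM in the WT germ cells and 2290 TPM in the Tet2KO germ cells. Higher calls numbered 4 without set T231, where fewer sets had to pass. Of the exon bases of Csf1r 17.8% lie in exons of Hmgxb3, and reads in such an overlap were counted for both genes. The embryonic haemoglobin genes Hbb-y and Hba-x had 1 count each over 24 oocytes, against 2044 and 584 TPM in the germ cells. Hba-a1 had 3 counts, against 2433 TPM, with 71.6% of its windows found in another gene. Among granulosa and cumulus markers 4 of 14 were called lower (28.6%) and 1 higher (7.14%), against 14.1% and 12.8% of all genes. Their summed levels were 22.7 to 82.3 TPM in oocytes, against 100.5 TPM in the WT germ cells. The Tet2KO germ cells had 36.05 TPM, which lies within the oocyte range. With the Tet2KO library 2 were called lower. The member called higher was Cyp19a1, aromatase, with 19.6, 40.1 and 78.9 TPM as the lowest, median and highest of the oocytes, against the floor of 0.01 FPKM in the germ cells. Of the 14 markers 9 had 3 or fewer counts over all oocytes. Amh and Amhr2 had no count, Foxl2 and Inha had 1 each and Inhba had 3 over all 24.

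Ribosomal protein genes were the largest group to be called lower, 41 of 81 with none called higher, and a median of -30.8 points. In every oocyte 79 of the 81 ranked below the germ cells. Most of the 81 ranked above 75 in the germ cells, so they could not be called higher and had little room to rise. The 81 genes made up 0.277% to 0.465% of an oocyte's TPM, against 22.5% of the germ cell TPM. Their result depended on gene length. Without length scaling 58 of the 81 were called lower, with a median of -39.8 points. With the other table's gene lengths 36 were called lower, with a median of -24.8 points. Rpl18, the ribosomal protein gene with a germ cell level among the highest, was at 0, 3.59 and 6.40 TPM as the lowest, median and highest of the oocytes, against 7729 TPM in the germ cells. Rps27l, a p53-responsive relative of Rps27, was the highest of the list in oocytes at 1220 TPM, against 473 TPM in the germ cells. Rps2 was the highest of the canonical genes at 268 ± 54 TPM in oocytes, against 8112 TPM in the germ cells. Many ribosomal protein genes have near-identical copies, and the oocyte counts kept only reads of mapping quality 30 or more. The 10 genes with under 10% of their tested 31-base windows found in another gene had a median difference of -36.1 points with 6 called lower, and the other 71 had -28.2 points with 35 called lower. Eef1a1, the elongation factor that leads the germ cell ranking at 11994 TPM, had 48.8 ± 0.559 TPM in oocytes, with 72.9% of its windows found in another gene.

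Energy genes followed with fewer calls. Among the respiratory chain subunits encoded in the nucleus, 26 of 75 were called lower and none higher, with a median of -17.9 points. Uqcrc1 of complex III had 0.310 ± 0.035 TPM in oocytes, against 452 TPM in the germ cells, whereas Atp5b of the ATP synthase had 553 ± 24 TPM in oocytes, against 2276 TPM in the germ cells, and Cox8a had 1200 ± 196 TPM, against 784 TPM. Without length scaling 44 of the 75 were called lower, and 18 were with the other table's gene lengths. Among glycolytic genes 6 of 18 were called lower and none higher. Gapdh had 0.496, 2.03 and 4.20 TPM as the lowest, median and highest of the oocytes, against 2188 TPM in the germ cells, and Ldha had counts in 6 of 24 oocytes, against 171 TPM in the germ cells. Ldhb, the lactate dehydrogenase subunit of oocytes, was at 3803 ± 1574 TPM in oocytes, against 354 TPM in the germ cells. Of 25 genes of pyruvate entry and the citrate cycle 6 were called lower, led by Idh3g and Mdh2, while Idh3a, another subunit of the same dehydrogenase as Idh3g, had 87.3 ± 0.4 TPM in oocytes, against 36.8 TPM in the germ cells.

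Immediate early genes had a median of -31.6 points, with 10 of 15 called lower and none higher. Jun had no count in 24 oocytes and 88.2 TPM in the germ cells, Fos had 24 counts and 127 TPM, and Jund had 15 counts and 434 TPM. Dusp1, a phosphatase of the same early response, was not low, at 557 ± 113 TPM in oocytes, against 116 TPM in the germ cells. Replication genes (4 of 33 lower, none higher), homologous recombination genes (2 of 23 lower, none higher) and proteasome genes (7 of 39 lower, 1 higher) had medians of -3.7, 7.2 and -7.3 points. Their shares of lower calls, 12.1%, 8.70% and 17.9%, were near the 14.1% of all genes. The recombination median was -0.29 with the 14 other young oocytes in place of the T-named sets and -1.49 in the second pair, so its sign depends on the oocytes used. Within them Pold1, the catalytic subunit of polymerase delta, fell to 0.446 ± 0.150 TPM in oocytes, against 284 TPM in the germ cells, while Pcna, its clamp, was level at 522 ± 9 TPM in oocytes, against 508 TPM in the germ cells.

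Beyond the lists, gains and losses were ranked with symbols of the form Gm plus digits or ending in Rik left out. The 10 largest gains among the other genes of 10 TPM or more were C86187, Tcl1b2, Mir6973b, D6Ertd474e, Fbxw26, Rln3, Bmp15, Mir5116, Sebox and Nlrp4f. C86187, with no assigned role here, had 4906 to 6989 TPM in oocytes and stood at the germ cell floor. The 2 microRNA entries are 80 and 63 bases long and lie wholly within exons of Gfra4 and Mmgt1, so their counts cannot be assigned to the microRNAs. Sebox, a homeobox gene needed for early embryos in mice, had 188 ± 18 TPM in oocytes, and Rln3, the peptide relaxin 3, had 274 ± 86 TPM, both at the floor in the germ cells. The 10 largest losses were Hbb-y, Hba-a1, Rpl9, Hba-a2, Utf1, Ifitm2, Rhox5, Rpl29, H19 and Rhox9. Of the tested windows 90.6% in Hba-a2, 71.6% in Hba-a1, 48.8% in Rpl29, 39.7% in Ifitm2 and 20.3% in Rpl9 occur in another gene. The low counts of these genes are less certain for that reason, while the rest of the 10 had 6.25% or less. Rhox5 and Rhox9, homeobox genes of an X-linked reproductive cluster, had no count in any oocyte, against 766 and 592 TPM in the germ cells. Of the X chromosome's 768 genes, 96 were called higher (12.5%) and 136 lower (17.7%), within the range of the autosomes for the first and at its upper end for the second.

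Symbols of the form Gm plus digits or ending in Rik were left out of the ranking by abundance. Among the other genes, the most abundant shared transcripts of the oocytes after Zbed3, Tcl1 and Gdf9 were Spin1, Rfpl4, Elobl, Btg4, Cks2, Rbbp7 and Mphosph6. Spin1, a reader of histone methylation, averaged 13856 ± 1005 TPM in oocytes, against 100.9 TPM in the germ cells. Elobl, an elongin B relative, averaged 8467 ± 3743 TPM, against 0.408 TPM in the germ cells. Cks2, a cyclin-dependent kinase subunit that mouse meiosis needs, had 7917 ± 1216 TPM in oocytes, against 332 TPM in the germ cells. In the germ cells the list was led by Eef1a1, Rplp1, Rps2, Rpl18 and Rpl23a. With all symbols kept, the 10 most abundant shared genes took 12.9% to 15.5% of an oocyte's TPM, against 6.88% in the germ cells. The top 100 took 35.9% to 40.6%, against 31.3%.

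The base composition of a gene moved with the comparison. In the decile of genes with the lowest GC content (30.9% to 41.4%) the median rank difference was 8.43 points, and in the decile with the highest (58.0% to 82.2%) it was -15.7 points. Calls followed the same order, from 18.1% higher and 6.19% lower in the first decile to 5.76% higher and 31.5% lower in the last. With each gene's difference taken relative to the median of its own GC decile, 12.4% of genes were called higher and 12.4% lower, including 85.7% and 75.2% of the original calls. Calls were then 13 of 17 maternal effect genes higher, 6 of 16 germ cell specification genes lower, 13 of 32 imprinted genes lower and 37 of 81 ribosomal protein genes lower. Lower calls became 2 of 14 for granulosa markers, 7 of 16 for fetal gonad markers, 5 of 39 for proteasome genes and 2 of 8 for the male pathway, and 3 of 18 blood markers were called higher. The part of library preparation in this trend was not tested.

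**Figure D4:**
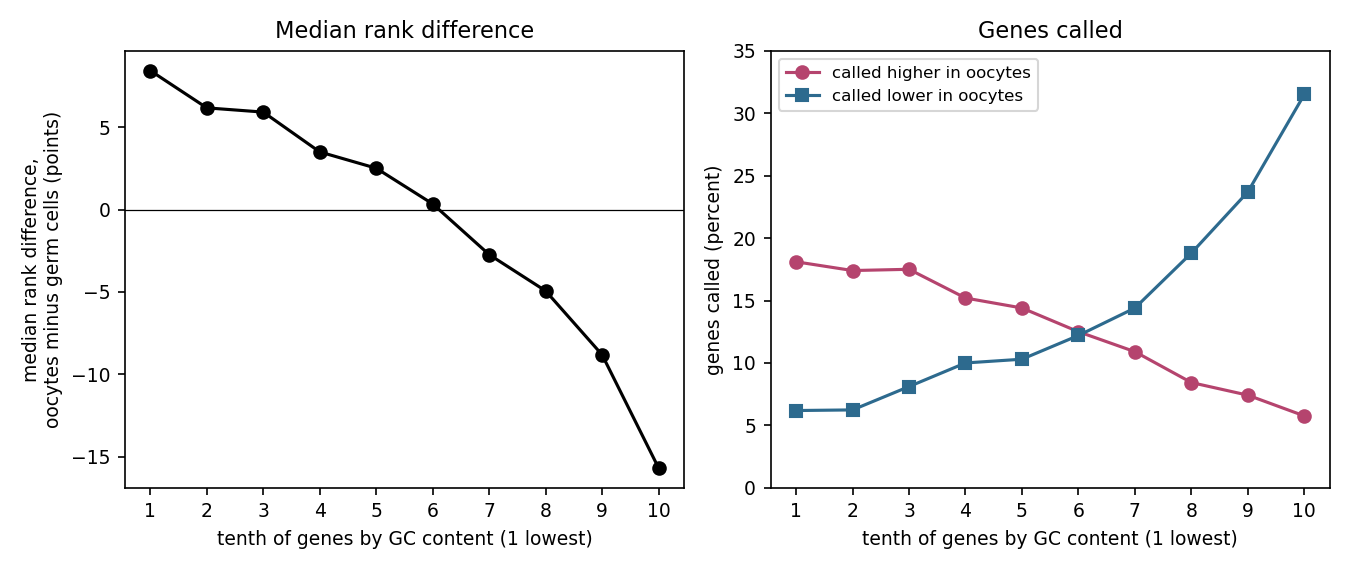
Left, median rank difference (young WT oocytes minus E13.5 WT germ cells, percentile points) for deciles of the shared genes by GC content of their transcripts, and right, the percentage of genes called higher or lower in each decile. The median declines from 8.43 to -15.7 points and calls of higher outnumber calls of lower up to decile 6 and not beyond.

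A pair of groups that shares no library with the first was formed from the 14 other young wild-type oocytes and the E13.5 Tet2KO germ cells, which differ in genotype. These 14 oocytes form 1 set, so a call in this pair needed 1 set median to pass rather than 3. By that looser rule 2777 genes were called higher in oocytes (14.8%) and 3004 lower (16%). The 2 pairs had 2209 higher genes in common, 92.3% of the first list and 79.5% of the second, and 2371 lower genes, 89.5% of the first and 78.9% of the second, with 1 gene called in opposite directions. Of the 606 genes of the lists, 56 of the 57 called higher and 164 of the 174 called lower in the first pair were called the same way in the second. Stra8 and Rec8, with 0 and 1 counts over the T-named oocytes, were at 150 and 117 TPM in the Tet2KO germ cells and at 282 and 219 TPM in the WT germ cells. Junb, an immediate early gene, was at 64.8 ± 21.1 TPM in the T-named sets and 1.06 TPM in the 14 others, against 42.2 TPM in WT germ cells. Oocytes of 10 to 12 months had Zp3 at 660 TPM, Gdf9 at 13599 TPM and Stra8 at 0 TPM as means of their set medians. The WT germ cells had 0.571, 0.347 and 282 TPM in the same order.

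**Figure D5:**
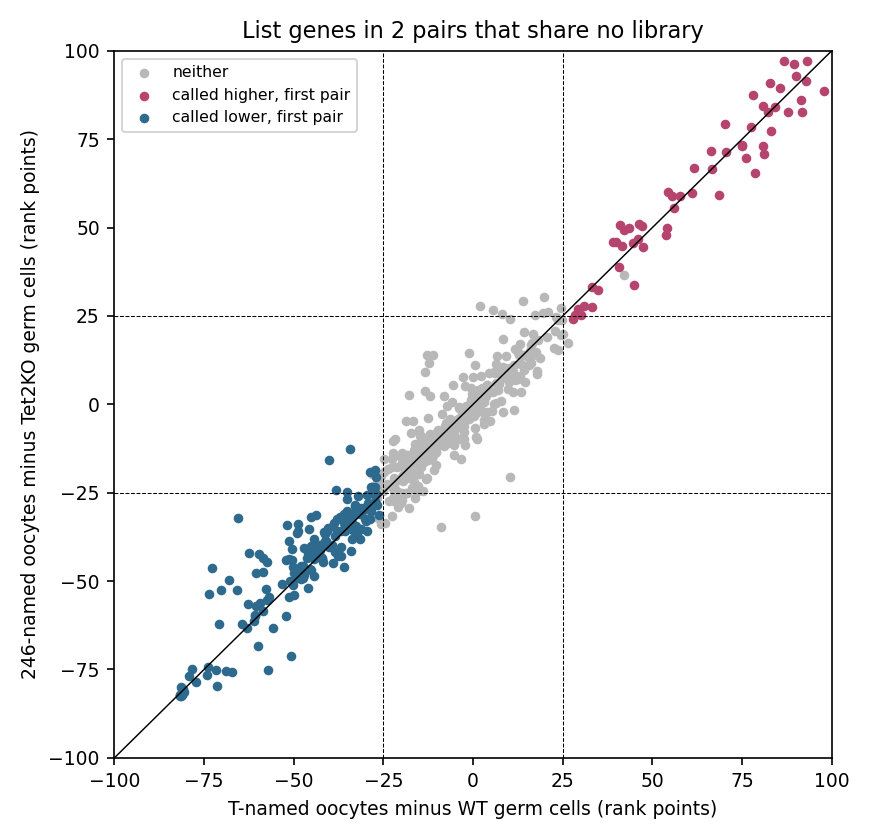
Rank difference (percentile points) of the 606 genes of the lists in T-named young WT oocytes minus WT germ cells (horizontal axis) and in the 14 other young WT oocytes minus Tet2KO germ cells (vertical axis), coloured by call in the first pair, with dashed lines at 25 points. None of the listed genes called in the first pair was called the opposite way in the second.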

How the data were processed

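RNA sequencing of 24 single oocytes and 1 pooled germ cell library was compared. For oocytes the deposited values are counts per gene, made per the file headers with featureCounts 1.6.2 on GENCODE mouse release 17 at mapping quality 30 or more, without strand, counting multi-mapped reads and every gene of an overlap. Aligner HISAT2, SAMtools and build mm10 are listed in the submitters' processing notes. The authors deposited the germ cell data as FPKM with a smallest value of 0.01, and the aligner and counter for it are not given in the sources used here. Columns whose name matched no label (39) were not used, nor were 39 samples without an assignable group.

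Germ cell rows were joined by symbol, or for 459 of 18743 genes by Entrez identifier. Oocyte counts were divided by gene length and both tables scaled to a common total over shared genes (TPM). Set values are medians of 8 oocytes. Ranks share ties and no filter on low values was applied. GC content and shared windows (31 bases, every 10 bases) came from GENCODE M21 transcripts. Python 3.11.15, numpy, pandas and scipy were used. Counts of 0 carry a limit of 3 counts over the group, which covers counting error only.

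Named genes were the 10 largest gains and losses at 10 TPM or more with the same side in 24 oocytes, the 10 most abundant of each group, and, per list, up to 6 members of largest rank difference and up to 4 of highest level, beside a fixed set (the Tet genes, Stra8, Ddx4, Dazl, Pou5f1, the zona genes, Gdf9, Bmp15, Figla and Mos). Symbols of the form Gm plus digits or ending in Rik were left out of the rankings of gains, losses and abundance. Other names were chosen after their values were seen. Gene lists and members were chosen with earlier results of these data known. The alternatives tried are given in the closing section. A member of the meiotic list is counted but not reported by name here.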

Additional observations from a re-analysis of the deposited data

How the results depend on the processing

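The number of genes called higher in oocytes (2393) and of genes called lower in oocytes (2650) stayed within 1.5 times under the filter at 1 TPM, each scaling and length choice, other oocytes or germ cells, each left-out set, summed counts, GC centring and removal of genes that share windows (the last 2, and the 14 other young oocytes with the Tet2KO germ cells, were chosen after seeing the data). Leaving out a set can only add calls, because fewer sets must pass, so that setting could not lower either number. Calls with the 14 other young oocytes likewise need only 1 set median to pass. The threshold moved the 2 numbers to 4296 higher and 4568 lower at 15 points, and to 1119 and 1029 at 40 points. A 4-fold TPM ratio gave 5274 lower at a pseudocount of 1 and 7782 lower at 0.1. Requiring all 24 oocytes to pass gave 1344 lower. The rank correlation of oocytes with PGC_WT, the wild-type germ cells, of 0.565 moved beyond the spread of the sets to 0.365 with the filter at 1 TPM, 0.575 with the germ cell table's lengths, 0.573 with the Tet2KO germ cells, 0.576 with old WT oocytes, 0.560 without Gm and Rik symbols, 0.551 without genes that share windows, and 0.575 for the 14 other young oocytes with the Tet2KO germ cells. The causes of these moves were not tested. No list median of 25 points or more and no called named gene changed sign under the settings run. No paired analysis was possible because the 2 groups share no replicate number. The unknown depth of the germ cell library limits what its low values show.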
